A study of Mus musculus with 22 samples.

Results

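The transcriptome of the hippocampus was compared between 3-month-old TgproNGF#3 mice and wild-type (WT) mice of the same age. Both groups were males of the C57Bl/6xDBA/2 background that had received no treatment, and they were picked by the genotype and age in the sample labels: 4 TgproNGF#3 and 4 WT mice, 8 of the 22 arrays of the series, 1 mouse per array. TgproNGF#3 is a line from 1 founder. It carries the cDNA of pre-proNGF, mutated at the site where the protease furin cuts, followed by an internal ribosome entry site and EGFP, under the Thy1.2 promoter, which drives expression in the brain of adult mice. RNA of the right hippocampus was labelled with the dye Cy3 and hybridized to Agilent whole-genome arrays. The other 14 arrays hold males of 1 month (4 and 4) and females of 12 months (3 and 3), and are used below only to ask whether a difference at 3 months was of another size at another age.

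Neurotrophins are made as precursors, which furin and other convertases cut. The precursor proNGF binds the neurotrophin receptor p75NTR together with sortilin and can act against survival and plasticity of neurons. The hippocampus holds excitatory granule and pyramidal neurons, GABAergic interneurons and glia, and receives cholinergic fibres. RNA of the whole tissue was measured, so that fewer cells of a type and less RNA per cell cannot be told apart in any result below.

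Each value is a level: the log2 intensity of a probe minus the 75th percentile, on that array, of the spots well above background, so that a level of 0 is that percentile. Log2 FC is the mean level of TgproNGF#3 mice minus that of WT mice. A probe or gene is said to have risen, fallen or changed only where the Benjamini-Hochberg adjusted p of limma, taken over all 33593 probes tested, was below 0.05. Genes are represented by their brightest tested probe (15745 genes). The share of spots well above background was 61.7% ± 2.97 in TgproNGF#3 and 63.5% ± 0.51 in WT mice (SD, n = 4; two-sided exact permutation p = 0.314, where 0.0286 is the smallest that 4 against 4 allows). TgproNGF#3 replicate 4 stood apart, with 57.6% of spots above background and the most extreme place, -96.8, on the first principal component, which held 50.4% of the variance. Counts below are therefore also given without it where they moved. All 8 fixed markers of dentate granule neurons, all 7 of CA1 and 6 of the 7 of CA2 and CA3 pyramidal neurons were measured, as the labelled tissue should hold. Thy1 was at 5.49 ± 0.27 and 5.42 ± 0.24 (SD, n = 4).

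With the main scaling, more transcripts fell than rose in TgproNGF#3 mice, while over genes the majority turned with 2 other scalings, given below. Of the 33593 probes, 2302 were lower (6.85%) and 529 higher (1.57%), and of the 15745 genes 697 were lower (4.43%) and 324 higher (2.06%). The falls were also deeper: the median Log2 FC was -0.99 over the lower and 0.75 over the higher genes. Beyond -2 lay 86 of the lower genes and above 2 only 4 of the higher ones, while the median over all genes tested was -0.05. By the rule of the study's methods (unadjusted p below 0.05 and a Log2 FC beyond 1 in size), 2056 probes were lower (6.12%) and 216 higher (0.643%). Among the 647 lower genes with all 8 values, TgproNGF#3 replicate 4 was the lowest of the 4 transgenic mice for 426, and over all 14807 such genes for 7604. The groups did not overlap for 641 of these 647 genes and for 303 of the 309 higher genes with all 8 values. Groups that lie apart are therefore usual for a called gene.

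The direction depended on the scaling and the number of calls on single mice. When all spots entered the 75th percentile, Log2 FC rose by a median of 0.134 over the probes and the share of lower probes among those called went from 81.3% to 57.5% (1648 higher, 2227 lower), and with the authors' own log2 values it was 59.5%. Over genes the majority turned: 1029 were higher and 606 lower with all spots in the percentile, and 906 higher and 688 lower with the authors' values, against 324 and 697. Called probes numbered 969, 1333 and 1592 when WT replicate 4, 1 or 3 was left out, 1618 when TgproNGF#3 replicate 1 was, and 3189 (968 higher and 2221 lower) when TgproNGF#3 replicate 4 was, against 2831 with all mice. Alignment of the arrays to the spike-in probes instead gave 130 called probes. Of the 94 called genes chosen for naming, 46 held at the threshold whichever mouse was removed.

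**Figure D1:**
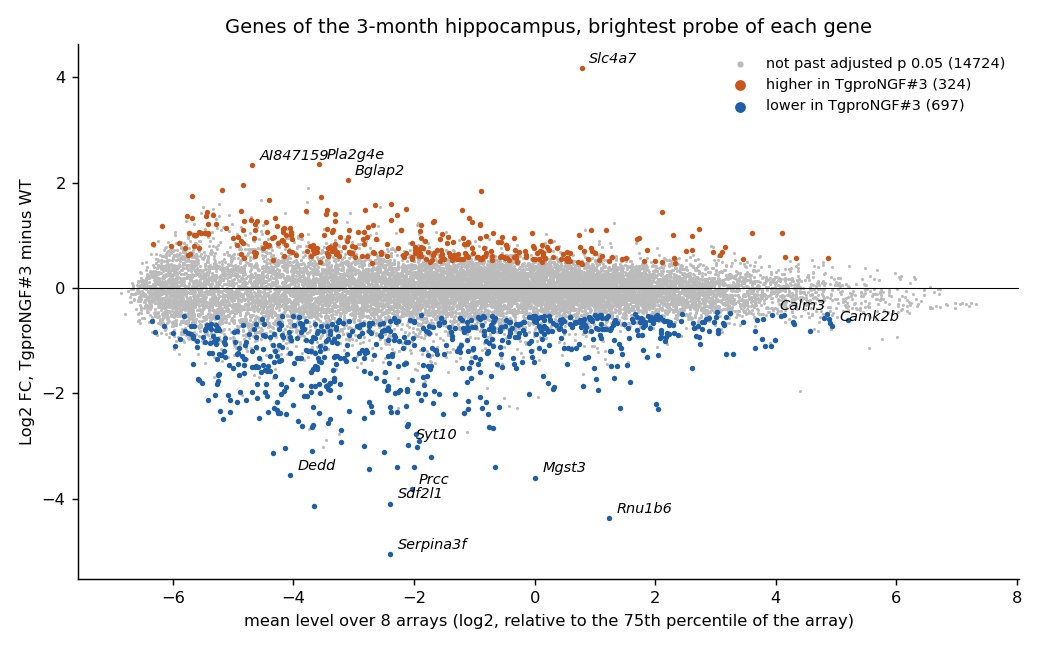
Mean level over the 8 arrays (log2, horizontal axis) against Log2 FC (TgproNGF#3 minus WT, vertical axis) for the 15745 genes tested at 3 months, 1 point per gene, with the 324 higher and 697 lower genes coloured. The cloud reaches further below 0 than above it, with Serpina3f lowest at -5.06 and Slc4a7 highest at 4.17.

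The deepest falls came from genes of different roles. Sdf2l1, a component of chaperone complexes in the endoplasmic reticulum (ER), was at -4.24, -3.50, -5.10 and -4.92 in the 4 TgproNGF#3 mice and at -0.19, -0.41, -0.58 and -0.19 in the 4 WT mice. The groups lay far apart, and the Log2 FC was -4.10 (standard error 0.32, adjusted p = 0.000619). Prcc, a nuclear protein gene, was at -4.44, -2.61, -4.20 and -4.57 against -0.16, -0.59, 0.33 and -0.09 (Log2 FC -3.82, standard error 0.41, adjusted p = 0.00154). Mgst3, a microsomal glutathione S-transferase, was at -2.34, -0.08, -2.16 and -2.59 against 1.54, 1.94, 2.19 and 1.59 (Log2 FC -3.61, standard error 0.49, adjusted p = 0.0041). In both genes the groups lay apart and TgproNGF#3 replicate 2 was the highest transgenic mouse.

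The same mouse was the highest of its group for Dedd, a death effector domain protein (-6.33, -4.56, -6.25 and -6.18 against -2.49, -2.19, -2.0 and -2.41, Log2 FC -3.55), and for Rsl24d1, a factor of ribosome assembly (Log2 FC -3.41). It was also the highest for Ttc5, a cofactor of transcription (-3.40), Ubfd1, a ubiquitin domain protein (-3.40), and Ube2q2, a ubiquitin-conjugating enzyme (-3.21). Second probes of Ttc5 and Ubfd1 gave only -0.27 (adjusted p = 0.558) and -0.22 (adjusted p = 0.29), so that these falls rest on 1 probe each, while those of Mgst3 (-3.65), Rsl24d1 (-2.27) and Ube2q2 (-1.12) were lower too. It was the highest transgenic mouse for 256 of the 647 lower genes and for 2946 of all 14807 with 8 values, and TgproNGF#3 replicate 1 for 193 and 7035. Maml2, a coactivator of Notch signalling, was at -6.43, -5.15, -6.10 and -5.95 against -2.57, -2.83, -2.91 and -2.78 (Log2 FC -3.14, standard error 0.25, adjusted p = 0.000654). Serpina3f, a serine protease inhibitor with near-identical neighbours whose signals the probe may share, had a Log2 FC of -5.06 (standard error 0.96, adjusted p = 0.0148). Its values were -5.64, -6.61, -5.99 and -1.44 against 0.49, -0.07, -0.41 and 0.55, so that TgproNGF#3 replicate 4 lay well above the other transgenic mice but still below every WT mouse. The 12 largest falls were taken over called genes named through RefSeq identifiers, with a value on all 8 arrays and groups apart, which leaves out the 18S and 5.8S ribosomal RNA probes described below. Of these 12, 10 held at the threshold whichever mouse was removed. The exceptions were Serpina3f (adjusted p = 0.0511 without TgproNGF#3 replicate 1 and 0.0511 without WT replicate 4) and the histone gene H2ac4.

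**Figure D2:**
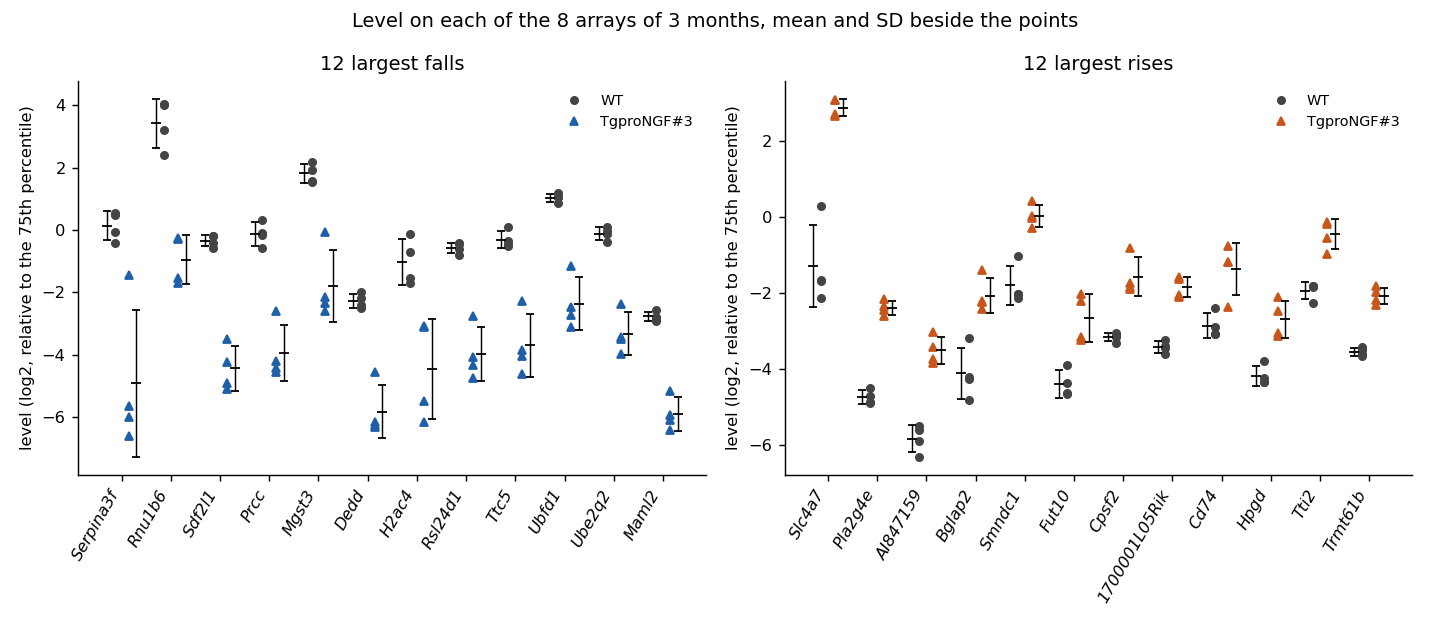
Levels (log2 relative to the array's 75th percentile) of the largest falls and rises, over genes named through RefSeq identifiers with 8 values, in each of the 4 TgproNGF#3 and 4 WT mice of 3 months, 1 point per mouse, with the group mean and SD as bars beside the points. Only genes whose groups do not overlap were drawn, so that the gaps follow from the choice. The 4 transgenic mice of Serpina3f spread from -6.61 to -1.44.

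Some of the RNAs that fell carry, as background, no poly(A) tail. No list of such RNAs was fixed or counted. Rnu1b6, a U1 small nuclear RNA of the spliceosome, was at -1.55, -0.30, -0.25 and -1.71 in TgproNGF#3 mice and at 4.02, 2.40, 3.21 and 4.05 in WT mice, with groups far apart (Log2 FC -4.37, standard error 0.46, adjusted p = 0.00144). Rnu2-10, a U2 small nuclear RNA, was measured in 3 transgenic mice at -6.66, -5.74 and -5.67 and in WT mice at -1.11, -2.93, -2.34 and -1.15 (Log2 FC -4.14, adjusted p = 0.00316), and, lacking 1 value, is not among the 12 largest falls above. In WT mice replicate 2 was the lowest for both. U1 and U2 genes exist in many near-identical copies, so that the copy is uncertain.

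Of 3 ribosomal RNA probes, singled out after their values had been seen, 2 fell. The probe of 18S ribosomal RNA (Rn18s) was at 1.39, 1.90, 1.81 and -0.10 in TgproNGF#3 and at 7.27, 4.19, 7.18 and 6.81 in WT mice (Log2 FC -5.11, standard error 0.70, adjusted p = 0.00423), with WT replicate 2 nearest to the transgenic mice. That of 5.8S ribosomal RNA (Rs5-8s1) was at -4.94, -4.04, -3.71 and -3.25 against 0.61, -1.41, 1.14 and 1.39 (Log2 FC -4.42, adjusted p = 0.00391). For 28S ribosomal RNA (Rn28s1) the values were 1.82, 4.63, 5.36 and 1.84 against 5.86, 5.0, 5.01 and 5.63, with overlapping groups (Log2 FC -1.96, adjusted p = 0.137). The labels give total RNA as the molecule, while the labelling text starts from poly(A)+ RNA. How much of the RNA without a tail entered each labelling reaction is not known, and its part in these falls was not tested.

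Histone genes, most of whose messengers also end without a poly(A) tail, fell more often than other genes. Of 106 histone genes 49 were tested, and 15 of them fell and 0 rose, against 4.43% lower over all genes. The median Log2 FC of the 49 was -0.43, 46 of them lay below 0, and the list stayed below 0 under each scaling tried. The sum of their linear levels was 112 to 133 times the 75th percentile in TgproNGF#3 mice and 146 to 185 times in WT mice. H4c9, a histone H4 gene, was at -5.23, -5.08, -5.06 and -5.17 against -3.04, -3.48, -3.11 and -3.11, the tightest of these differences (Log2 FC -1.95, standard error 0.14, adjusted p = 0.000526). H3c3 was at -2.65, -2.62, -2.56 and -3.17 against -1.29, -0.71, -0.73 and -0.92 (Log2 FC -1.83, adjusted p = 0.00144). In H2ac4 the transgenic mice spread widely, at -5.51, -3.12, -3.08 and -6.17 against -0.14, -1.72, -1.55 and -0.70 (Log2 FC -3.44, standard error 0.71, adjusted p = 0.0206, and 0.0613 to 0.0667 when TgproNGF#3 replicate 1 or WT replicate 1 or 4 was left out). H4c3 fell by 2.38 on the log2 scale. H4c9 and H3c3 were picked for their values. H3f3a, which makes a replication-independent histone with a polyadenylated messenger, was also among the 15 (Log2 FC -0.55, adjusted p = 0.0352). The count of lower histone genes was 15 without TgproNGF#3 replicate 4, 10 without WT replicate 4 and 1 with the spike-in alignment. Histone genes of 1 class are near-identical in their coding parts, so that a probe may read several.

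Some genes of chaperones and stress response fell besides Sdf2l1. Of 36 tested, 8 fell (22.2%, against 4.43% over all genes) and 0 rose, and the median Log2 FC was -0.31, against -0.05 over all genes. Besides Sdf2l1 they were Dnajc3, an inhibitor of the kinase PERK (Log2 FC -1.25), the small heat shock protein gene Hspb1 (-0.94), the stress-induced transcription factor genes Atf3 (-0.92) and Xbp1 (-0.76), the lectin chaperone gene Canx (-0.68), the co-chaperone gene Dnajb1 (-0.65) and Hspa5, the main Hsp70 of the ER (-0.64). The Hspa5 level was 3.36, 2.96, 3.16 and 3.05 against 3.92, 3.65, 3.67 and 3.84, a small difference with groups apart (standard error 0.14, adjusted p = 0.0264). Dnajc3 was at -2.22, -2.17, -1.54 and -3.02 against -0.73, -1.23, -1.06 and -0.94 (adjusted p = 0.0274). Apart from Sdf2l1 these calls were close to the threshold: the count was 1 when WT replicate 1 or 4 was left out, 3 when replicate 2 of either group was and 4 when WT replicate 3 was.

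A minority of the promoters of this list carry a known motif, and the sequences below show it. The ER stress response element, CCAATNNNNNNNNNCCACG, is bound by NF-Y and by ATF6 in the unfolded protein response. It was searched on both strands from 250 bases before to 50 after the start of each gene, in the RefSeq promoters of build GRCm38.p6. It was present in 39 of 32851 promoters (0.119%) and in 7 of the 33 genes of the list that have a promoter there. All 7 were tested. Canx, Dnajc3 and Hspa5 fell, while Pdia6 (Log2 FC -0.79, adjusted p = 0.0532), Creld2 (-0.58, 0.0555), Hsp90b1 (-0.29, 0.179) and Calr (-0.16, 0.517) did not pass. Among the list's genes without the motif 5 of 24 tested fell. Windows of 4 of these genes follow, 5′ to 3′ on the strand of the gene, with the fixed letters of the motif in capitals: Dnajc3 (chr14:118937802-118937871, plus strand), Hspa5 (chr2:34772000-34772069, plus), Canx (chr11:50325774-50325843, minus) and, as one that did not pass, Pdia6 (chr12:17266466-17266535, plus).
Dnajc3: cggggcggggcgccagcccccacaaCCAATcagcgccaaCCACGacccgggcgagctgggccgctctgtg
Hspa5: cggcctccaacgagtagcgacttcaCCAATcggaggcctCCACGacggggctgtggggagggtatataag
Canx: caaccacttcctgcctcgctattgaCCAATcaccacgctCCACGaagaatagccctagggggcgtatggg
Pdia6: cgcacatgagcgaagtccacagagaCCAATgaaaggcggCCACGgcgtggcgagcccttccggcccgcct

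The 4 windows shown share the motif in the same orientation and differ in the bases of its spacer, while Calr and Creld2, not shown, carry it on the other strand. The match is a description of these letters only. For histone genes the same search with the TATA box letters TATAAA found them in 39 of the 100 genes with a promoter there. Counted over all promoters, of which a gene may have several, the share was 13.6%. Of the tested histone genes with these letters 6 of 17 fell, and of those without them 7 of 27. The letters, in capitals, are shown for 2 that fell, H4c4 (chr13:23581504-23581573, plus strand) and H4c12 (chr13:21750532-21750601, minus).
H4c4: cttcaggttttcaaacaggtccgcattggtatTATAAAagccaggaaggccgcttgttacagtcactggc
H4c12: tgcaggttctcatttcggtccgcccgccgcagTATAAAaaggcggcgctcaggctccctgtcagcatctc

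Of the immediate early genes, which neurons switch on within minutes of activity, most lay below 0. Of 26 tested, 5 fell (19.2%, against 4.43% over all genes) and 0 rose, 24 lay below 0 (56.0% of all genes did) and the median Log2 FC was -0.66. Their summed linear level overlapped between the groups, at 31.3 to 74.5 times the 75th percentile in TgproNGF#3 and 67.3 to 90.3 times in WT mice. Egr2, a zinc finger transcription factor gene, was at -2.23, -2.09, -2.94 and -4.52 against -0.71, -1.07, -0.81 and -0.70 (Log2 FC -2.12, standard error 0.46, adjusted p = 0.025). Sik1, a salt-inducible kinase gene, was at -3.50, -3.09, -3.42 and -3.98 against -2.17, -2.47, -1.74 and -2.27 (Log2 FC -1.34, adjusted p = 0.00853). For both the groups lay apart. The others that fell were Egr4 (-1.25), Dusp6, a phosphatase of ERK (-1.19), and Egr1 (-0.66). Fos, looked at as the best-known member, did not pass (Log2 FC -1.20, adjusted p = 0.0776) although its groups lay apart, and Arc (-0.85, adjusted p = 0.33) and Npas4 (-0.66, adjusted p = 0.244) overlapped. In TgproNGF#3 replicate 4 Arc was at 0.95, against 2.57 to 3.68 in the other transgenic mice. Without that mouse 5 genes fell and the median was -0.49. The count was 2 when WT replicate 1 or 4 was left out, 3 when WT replicate 3 was, 8 when TgproNGF#3 replicate 2 was and 0 with the spike-in alignment.

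**Figure D3:**
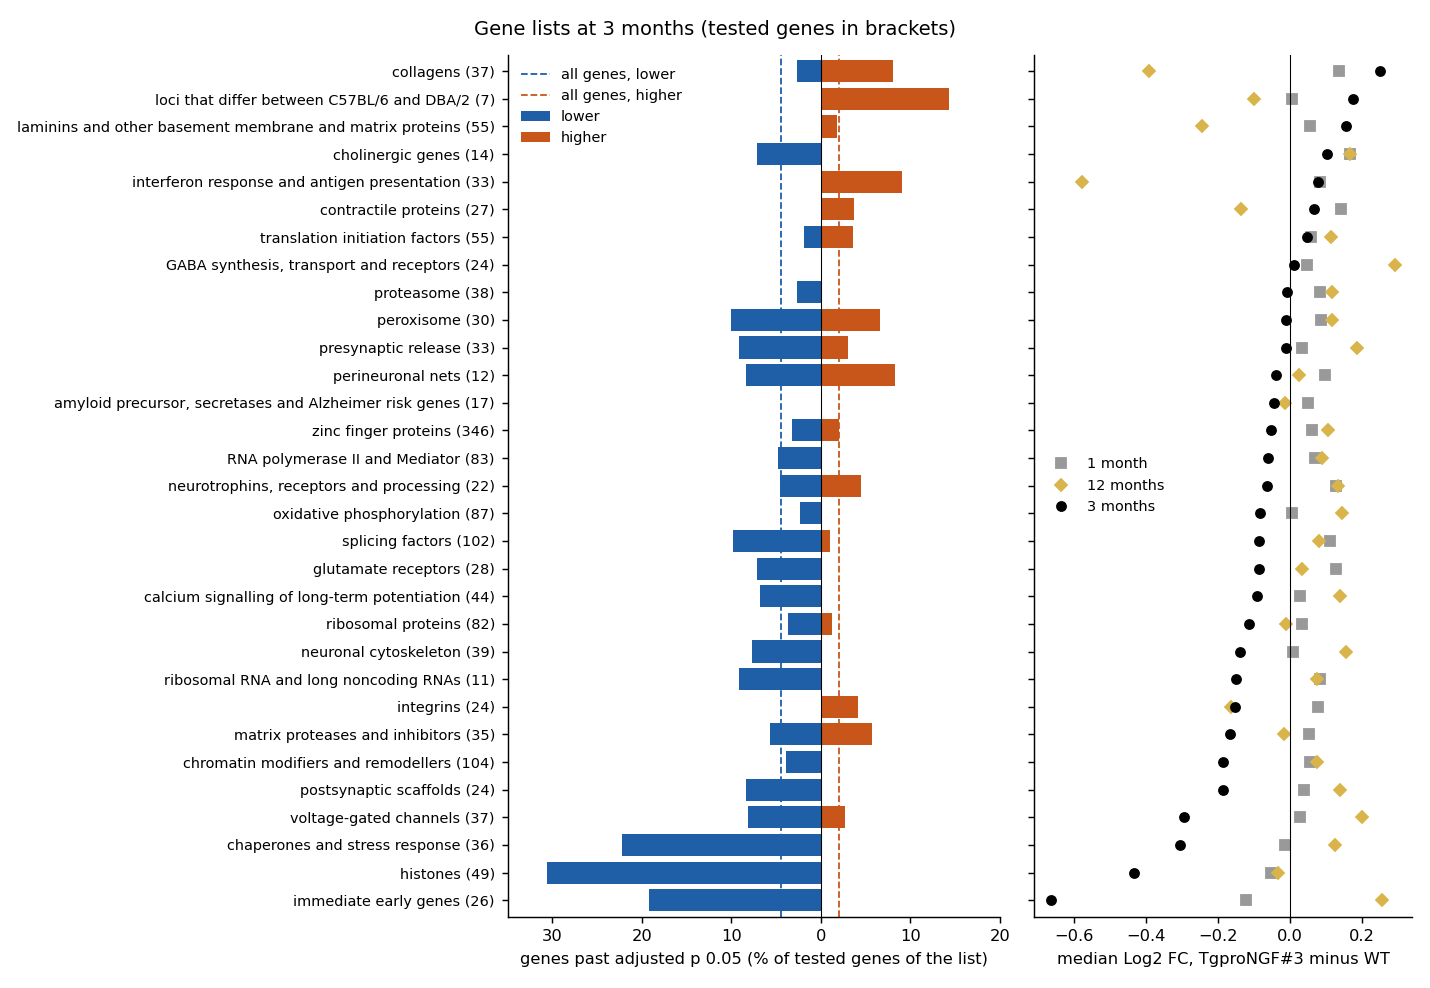
Gene lists at 3 months: left, the percentage of tested genes that were higher or lower at adjusted p below 0.05 in each list, with dashed lines at the values over all genes (2.06% higher and 4.43% lower), right, the median Log2 FC of each list in log2 units at 3 months (black), 1 month (grey) and 12 months (yellow). Histones (15 of 49 lower), chaperones (8 of 36) and immediate early genes (5 of 26) reach furthest to the lower side among the lists drawn, which leave out cell type markers, and among these lists collagens have the highest median at 3 months, 0.25.

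Among synaptic genes few members passed, and the share of lower genes ran from 6.82% to 9.09% in the 4 lists, against 4.43% over all genes. Of 44 genes of calcium signalling in long-term potentiation, the lasting strengthening of synapses, 3 fell and 0 rose (median Log2 FC -0.09, and 0.04 with the percentile over all spots). Prkaca, the catalytic subunit of protein kinase A, was at -3.97, -3.53, -3.88 and -4.32 against -3.06, -2.42, -2.60 and -2.42, with groups apart (Log2 FC -1.30, standard error 0.21, adjusted p = 0.00739). Camk2b, a subunit of the calcium/calmodulin-dependent kinase II, was at 4.49, 4.81, 4.69 and 4.26 against 5.58, 5.04, 5.16 and 5.39 (Log2 FC -0.73, adjusted p = 0.0354, and up to 0.116 with 1 mouse left out). Its other probe gave -0.46 with overlapping groups (adjusted p = 0.528). Calm3, a calmodulin gene, was at 3.78, 3.78, 3.58 and 3.57 against 4.32, 4.02, 4.31 and 4.13 (Log2 FC -0.52, adjusted p = 0.0461, above the threshold with any 1 mouse left out, up to 0.126). Its groups did not overlap.

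Of 28 glutamate receptor genes 2 fell: Cacng8, an auxiliary subunit of AMPA receptors (Log2 FC -1.0, adjusted p = 0.0032), at -4.33, -4.18, -4.30 and -4.32 against -3.15, -3.43, -3.27 and -3.29, and the kainate receptor gene Grik4 (-0.64, adjusted p = 0.0465, lost on leaving out any 1 of 7 mice, up to 0.128). The median of the list was -0.09. Without TgproNGF#3 replicate 4 it had 2 lower and 4 higher genes. Of 24 postsynaptic scaffold genes 2 fell, among them Nlgn3, an adhesion protein (Log2 FC -0.89, lost on leaving out any 1 of 6 mice, with an adjusted p of up to 0.105). Of these 24 genes 20 lay below 0, with a median of -0.19. Dlg4, which makes the scaffold PSD-95, was at 0.36, 0.80, -1.26 and 0.00 against 0.82, 2.10, 2.52 and 1.03. These groups nearly touched and the difference did not pass (Log2 FC -1.64, standard error 0.50, adjusted p = 0.0714).

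On the presynaptic side 3 of 33 genes fell and 1 rose. Syt4, a synaptotagmin of vesicle traffic, was at -2.66, -1.48, -1.91 and -3.35 against 0.04, -0.11, 0.25 and -0.11 (Log2 FC -2.37, standard error 0.35, adjusted p = 0.00572). Syt10, the synaptotagmin of growth factor vesicles, was at -4.58, -2.36, -2.36 and -5.03 against 0.15, -0.44, -1.37 and -0.76, with replicates 1 and 4 far below the other transgenic mice (Log2 FC -2.98, adjusted p = 0.0224, and between 0.0518 and 0.0659 without TgproNGF#3 replicate 1 or without WT replicate 1, 2 or 4). Of 37 voltage-gated channel genes 3 fell (8.11%, against 4.43% over all genes) and 1 rose (2.70%, against 2.06%), 29 lay below 0 (56.0% of all genes did) and the median was -0.29, the lower ones being the calcium channel genes Cacna1e (-2.13), Cacna1d (-1.95) and Cacna1c (-0.49). Cacna1d was at -3.07, -2.74, -2.69 and -4.35 against -1.37, -1.24, -1.19 and -1.26, while its other probe gave -0.24 (adjusted p = 0.371).

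Of the genes the study discusses for the arrays, the 5 with more than 1 tested probe are given here. The other probe of Calm3 was at 1.5, 2.12, 1.31 and 1.14 against 3.22, 2.77, 3.40 and 3.20 (Log2 FC -1.63, adjusted p = 0.00463), a deeper fall than that of the brightest probe. For Camk2a the brightest probe gave -0.47 (adjusted p = 0.285) and the other -1.57 (adjusted p = 0.0358). Eif2s1, the alpha subunit of initiation factor eIF2, gave -0.09 (adjusted p = 0.706) and -1.40 (adjusted p = 0.0581), and Slc12a5, the chloride exporter KCC2, gave -0.29 (adjusted p = 0.178) and -1.50 (adjusted p = 0.0531). Pvalb, the parvalbumin gene, stayed near 0 on both, at -0.04 and 0.11. The gap between the 2 probes of a gene was compared between groups for these 5 genes. It was wider in TgproNGF#3 mice by 1.11 for Calm3 on the log2 scale, at the smallest p the design allows (two-sided exact permutation p = 0.0286, adjusted over the 5 genes 0.0952). For Eif2s1 and Slc12a5 the exact permutation p was 0.0571, for Camk2a 0.143 and for Pvalb 0.571, so that none passed after adjustment.

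**Figure D4:**
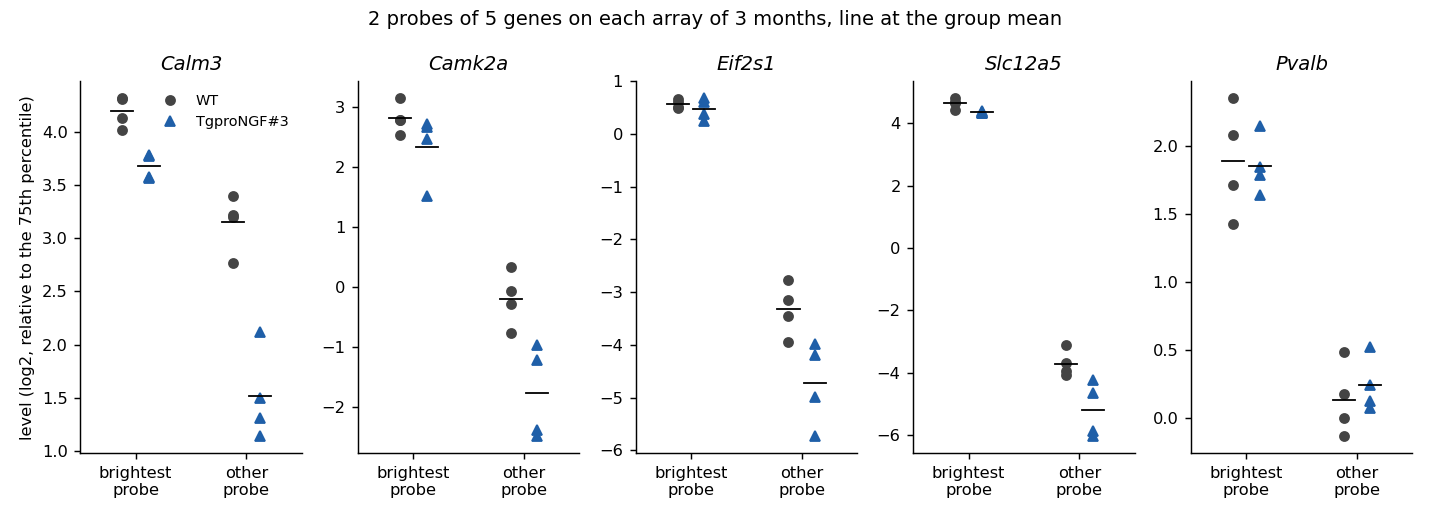
Levels (log2) of the brightest and the other probe of Calm3, Camk2a, Eif2s1, Slc12a5 and Pvalb in each of the 4 TgproNGF#3 and 4 WT mice of 3 months, with a line at the group mean. For the first 4 genes the dimmer probe separates the groups more than the brighter one, and for Pvalb neither does.

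Among genes with several probes and a called brightest probe, the other probes lay nearer 0. Since the genes were chosen by the brightest probe, this is favoured by the choice, and the medians are a description. Where the brightest probe fell the median Log2 FC was -0.92 on the brightest and -0.59 on the other probes, and where it rose 0.69 and 0.22. Where the brightest probe fell (181 genes), 197 of their 222 other probes also lay below 0 and 73 fell, with none higher. Where it rose (60 genes), 40 of 68 other probes also lay above 0, 11 rose and 3 fell. Among 3912 genes whose brightest probe did not pass, 344 of 4734 other probes fell and 62 rose. These shares are close to those over all probes tested, 6.85% lower and 1.57% higher. Over all 4153 genes with several probes the median Log2 FC was -0.07 on the brightest and -0.17 on the other probes.

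Genes of RNA processing and transcription were among the falls. Of 102 splicing factor genes 10 fell (9.80%, against 4.43% over all genes) and 1 rose (0.98%, against 2.06%), and the median Log2 FC was -0.08 (0.05 with the percentile over all spots). Hnrnpl, a regulator of exon choice, was at -5.49, -4.50, -4.86 and -6.07 against -2.16, -2.49, -2.12 and -1.79, with groups far apart (Log2 FC -3.09, standard error 0.32, adjusted p = 0.00136). Hnrnpul1 fell by 2.36 on its brightest probe, while its other probe gave 0.19, and the call was lost on leaving out any 1 of 6 mice (adjusted p up to 0.121). Nova1, a splicing regulator of neurons (-1.87), Snrpf (-1.13) and Srsf1 (-1.07) also fell, and Snrpd3, a core protein of the small nuclear RNPs, rose by 0.71, a call lost on leaving out any 1 of 5 mice (adjusted p up to 0.085). The number of lower splicing factor genes was 2 when WT replicate 1, 3 or 4 was left out and 6 when replicate 2 of either group was.

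Of 83 genes of RNA polymerase II and Mediator 4 fell, led by Gtf2h3, a subunit of TFIIH, at -4.39, -3.03, -3.91 and -4.88 against -1.07, -0.95, -0.77 and -0.96 (Log2 FC -3.11, standard error 0.34, adjusted p = 0.00164), and by Med13l (-2.02). Of 104 chromatin modifiers 4 fell and 0 rose. Brd1, a bromodomain protein of histone acetyltransferase complexes, was at -5.45, -5.28, -5.67 and -5.47 against -3.58, -3.54, -3.37 and -3.47, with an SD of 0.16 and 0.09 within the groups (Log2 FC -1.98, standard error 0.13, adjusted p = 0.000526). Setd1b, a methyltransferase of histone H3, fell by 1.53. The share of lower genes was 3.85% for the chromatin list and 4.82% for the polymerase list, close to the 4.43% over all genes. Of 346 zinc finger genes 11 fell and 7 rose, of 82 ribosomal protein genes 3 fell and 1 rose, of 87 genes of oxidative phosphorylation 2 fell, and of 38 proteasome genes 1 fell, Psmb2 (-2.63).

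With the main scaling and among genes in the fit, the rises were fewer and smaller than the falls, apart from Slc4a7. This gene, a sodium bicarbonate cotransporter, was at 2.70, 3.07, 3.06 and 2.64 in TgproNGF#3 and at -2.14, 0.28, -1.69 and -1.66 in WT mice on its brightest probe (Log2 FC 4.17, standard error 0.45, adjusted p = 0.00164). WT replicate 2 lay nearest to the transgenic mice. Its other probe went the opposite way, at 0.53, -0.07, 0.00 and 0.17 against 0.55, 0.78, 0.64 and 0.67 (Log2 FC -0.50, adjusted p = 0.0824). The probes therefore do not give 1 direction for this gene. In WT mice the other probe was the brighter, with a mean of 0.66, so that the transgenic mice set which probe stood for the gene.

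Pla2g4e, a phospholipase A2 that makes N-acyl lipids, was at -2.47, -2.61, -2.35 and -2.17 against -4.87, -4.72, -4.50 and -4.92 (Log2 FC 2.35, standard error 0.15, adjusted p = 0.000526). The 4 transgenic mice lay close to one another and far from the WT mice. AI847159 was at -3.85, -3.74, -3.44 and -3.05 against -5.52, -6.32, -5.91 and -5.62 (Log2 FC 2.33, adjusted p = 0.00133), and Bglap2, an osteocalcin gene with a near-identical neighbour, rose by 2.05. Smndc1, a factor of spliceosome assembly, was at 0.40, -0.04, 0.00 and -0.29 against -2.03, -1.03, -2.14 and -2.04 (Log2 FC 1.83, adjusted p = 0.00498).

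Fut10, a fucosyltransferase gene, rose by 1.73, and by 2.51 on its other probe. Tti2, which helps to assemble kinases of the PI3K-related family, rose by 1.48 and 1.45 on its 2 probes, and Hpgd, the enzyme that inactivates prostaglandins, by 1.49 and 1.86. Cpsf2, a subunit of the cleavage and polyadenylation machinery, was at -0.82, -1.89, -1.86 and -1.75 against -3.07, -3.17, -3.12 and -3.33, with TgproNGF#3 replicate 1 highest (Log2 FC 1.60, adjusted p = 0.00567). Trmt61b, a tRNA methyltransferase of mitochondria (1.47), and 1700001L05Rik (1.58) completed, with Cd74, the 12 largest rises among genes with a value on all 8 arrays and groups apart. Of these 12, 11 held at the threshold whichever mouse was removed.

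Cd74, the invariant chain of MHC class II and a marker of activated microglia and other antigen-presenting cells, was at -0.79, -1.18, -1.19 and -2.37 against -2.90, -2.41, -3.09 and -3.10. TgproNGF#3 replicate 4 nearly met WT replicate 2 (Log2 FC 1.49, standard error 0.32, adjusted p = 0.0239, and between 0.0553 and 0.0804 without TgproNGF#3 replicate 1 or 2 or without WT replicate 1, 3 or 4). Of 33 genes of interferon response and antigen presentation 3 rose (9.09%, against 2.06% over all genes) and 0 fell, the others being Ifit3 (0.93, lost on leaving out any 1 of 7 mice) and Ifit2 (0.71), and the median Log2 FC was 0.08. The number of higher genes was 0 without TgproNGF#3 replicate 1 or 2 or without WT replicate 1 or 4, 1 without WT replicate 3, and 9 with the percentile over all spots. None of the 13 microglial markers passed, and their median was -0.01.

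Among matrix genes the lists differed. Of 37 collagen genes 3 rose (8.11%, against 2.06% over all genes) and 1 fell, 12 lay below 0 and the median Log2 FC was 0.25. Col2a1, a fibrillar collagen of cartilage, was at -4.47, -3.47, -4.03 and -4.61 against -5.48, -5.64, -5.51 and -5.78 (Log2 FC 1.45, adjusted p = 0.00825), and Col11a1 (1.09, lost on leaving out any 1 of 5 mice, with an adjusted p of up to 0.0838) and Col9a1 (0.94) also rose. Col25a1, the transmembrane collagen of neurons, fell on its brightest probe, at -3.31, -3.67, -5.29 and -3.10 against -1.23, -1.76, -1.92 and -1.46 (Log2 FC -2.25, adjusted p = 0.0147, and 0.0513 without WT replicate 4). Its 3 other probes gave -0.36, -0.09 and -1.57. Of 55 laminins and other matrix genes 1 rose (1.82%, against 2.06% over all genes) and 0 fell, with a median of 0.16. Of 35 matrix proteases and inhibitors 2 rose and 2 fell (median -0.17), and of 24 integrins 1 rose (median -0.15). Of 12 genes of perineuronal nets, the matrix around some neurons, 1 rose, the hyaluronan synthase gene Has1 (0.95, lost on leaving out any 1 of 6 mice), and 1 fell, Bcan, brevican (-0.52, a call lost on leaving out any 1 of the 8 mice). The other probe of Bcan lay on the opposite side without passing (0.43, adjusted p = 0.0992), with every transgenic mouse above every WT mouse. The median of the 12 genes was -0.04 and 6 of them lay below 0. Their summed linear level, in which bright genes weigh most, was 18.5 to 23.04 times the 75th percentile in TgproNGF#3 and 25.5 to 31.5 times in WT mice. Aggrecan (Acan), a core protein of perineuronal nets, was higher in every transgenic mouse, at -3.39, -3.62, -3.41 and -3.27 against -3.79, -3.93, -4.37 and -3.77, without passing (Log2 FC 0.55, adjusted p = 0.0759). Prg4, lubricin, overlapped between the groups (Log2 FC 1.90, standard error 0.62, adjusted p = 0.0867). Leptomeningeal fibroblasts are cells of the brain's covering that make collagens. All 15 of their markers lay at or above 0, 1 rose (Islr, 0.75, lost on leaving out any 1 of 4 mice, with an adjusted p of up to 0.0844), their median was 0.38, and their summed linear level was 66.3 to 99.7 times the 75th percentile in TgproNGF#3 and 62.8 to 77.8 times in WT mice. Their part in the collagen values was not tested.

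Genes of inhibition and of neurotrophin signalling mostly did not pass. Of 24 genes of GABA synthesis, transport and reception 0 rose and 0 fell (limma, adjusted p), with a median Log2 FC of 0.01. Gad1, a GABA-synthesizing enzyme, was at 2.03, 2.45, 2.69 and 2.33 against 1.95, 2.00, 1.36 and 1.69 (Log2 FC 0.63, adjusted p = 0.078), with groups apart by a small gap, and Gad2 was at 0.39 (adjusted p = 0.253). For Pvalb the values were 1.64, 2.15, 1.85 and 1.79 against 2.35, 1.42, 1.71 and 2.08 (Log2 FC -0.04, standard error 0.21). The Log2 FC was -0.16 for Slc12a2, the chloride importer NKCC1 (adjusted p = 0.62), -0.18 for Calb1, calbindin (adjusted p = 0.452), and -0.36 for Bdnf (adjusted p = 0.231). Of 13 interneuron markers 1 rose (7.69%, against 2.06% over all genes), the transcription factor gene Dlx1 (0.77, adjusted p = 0.035), whose adjusted p rose above the threshold, to at most 0.116, for 5 of the 8 mice that could be left out.

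Of 22 genes of neurotrophins, their receptors and their processing 1 fell and 1 rose (4.55% each, against 4.43% and 2.06% over all genes). Furin, the convertase of the mutated cleavage site, was at -1.28, -1.33, -1.47 and -2.26 against 0.27, -0.41, -0.56 and -0.24, with no overlap (Log2 FC -1.35, standard error 0.26, adjusted p = 0.015, and 0.0521 without WT replicate 4). Sorcs3, a receptor of the sortilin family, was at -1.38, -1.34, -1.47 and -1.55 against -1.91, -1.82, -2.21 and -1.93 (Log2 FC 0.53, adjusted p = 0.0443). This call was lost on leaving out any 1 of 7 mice, with an adjusted p of up to 0.127. The proNGF receptors gave 0.57 for Ngfr, p75NTR (adjusted p = 0.0632), with groups apart, and -0.31 for Sort1, sortilin (adjusted p = 0.213). Without TgproNGF#3 replicate 4 the list had 4 higher genes and 1 lower gene. Of 14 cholinergic genes 1 fell (7.14%), the muscarinic receptor gene Chrm1 (-0.61, adjusted p = 0.0373, lost on leaving out any 1 of 6 mice, up to 0.125), and of 17 genes of the amyloid precursor, its secretases and Alzheimer risk none passed.

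Of the markers of cell types, few passed, and their shares stand against 4.43% lower and 2.06% higher over all genes. Of 14 oligodendrocyte markers 2 rose (14.3%), their median Log2 FC was 0.36, and their summed linear level was 89.6 to 95.8 times the 75th percentile in TgproNGF#3 and 73.0 to 89.3 times in WT mice. Aspa, which breaks down N-acetylaspartate, was at -0.10, -0.22, -0.42 and 0.02 against -1.08, -1.29, -1.23 and -1.27 (Log2 FC 1.04, standard error 0.14, adjusted p = 0.00401), and Opalin was at 0.73 (adjusted p = 0.05, just below the threshold and lost on leaving out any 1 of 7 mice). Gpr17, of oligodendrocyte precursors, fell by 0.71 (adjusted p = 0.0540 without WT replicate 4). Of the 5 markers of these cells 3 lay below 0, with a median of -0.05. Their summed level, which includes Gpr17 and weighs bright genes most, was 4.00 to 4.68 times the 75th percentile against 5.63 to 6.27 times. Of pyramidal neuron markers 2 of 7 fell for CA1 (28.6%), among them Fibcd1 (-0.93), and 2 of 6 for CA2 and CA3 (33.3%), Amigo2 (-1.80, lost without TgproNGF#3 replicate 1 or WT replicate 4) and Grik4, whose call was lost on leaving out any 1 of 7 mice. The medians were -0.31 and -0.36. None of the 8 granule neuron and 12 astrocyte markers passed, and 10 of the latter lay below 0 (median -0.26). The endothelial cadherin gene Cdh5 fell by 2.07 with the other 9 endothelial markers not passing. Hbb-b1, a beta-globin gene, was at -2.07, -1.5, -1.82 and -2.15 against 0.13, 0.45, 0.17 and 0.38 (Log2 FC -2.17, adjusted p = 0.000654), while the summed level of the 5 blood genes was 52.9 to 77.5 times the 75th percentile in TgproNGF#3 and 62.2 to 85 times in WT mice.

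All 13 choroid plexus markers lay below 0 with a median of -0.87, none of them past the threshold. Ttr, transthyretin, was at 6.35, 2.38, 6.89 and 5.49 against 6.25, 6.19, 6.57 and 6.00, so that TgproNGF#3 replicate 2 held far less than any other mouse. The summed linear level of the 13 markers ran from 6.50 to 139 times the 75th percentile in TgproNGF#3 and from 75.9 to 116 times in WT mice. Glo1, one of the loci known to differ between C57BL/6 and DBA/2 mice, rose by 1.01 (3.32, 2.62, 2.65 and 2.60 against 1.69, 1.74, 1.91 and 1.80, adjusted p = 0.0118), and the other 6 such genes tested did not pass.

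Probes designed on genomic intervals outside named genes, most of them candidate noncoding RNAs, fell more often than those of RefSeq messengers: 768 of 6749 (11.4%) against 1070 of 20149 (5.31%). Their median level was -4.52 against -1.52. In 5 equal classes of brightness, from dim to bright, the shares of lower probes were 7.76% against 4.92%, 15.9% against 8.68%, 11.8% against 6.08%, 11.8% against 4.26% and 8.03% against 3.79%. Of 1720 intervals with several tested probes 370 had a lower probe, all probes fell in 59 of these, 37 had a higher probe, and 2 had all probes higher. Coordinates are those of the array design, build mm9. The 3 probes of chr4:126009815-126015875 (forward) gave Log2 FC of -4.06, -3.82 and -3.70. The first of them was at -5.99, -4.24, -4.34 and -6.11 against -0.80, -1.26, -1.70 and -0.69. The probe of chr13:73472571-73483846 (reverse) fell by 4.71, from 2.15 ± 0.88 to -2.56 ± 0.24 (SD, n = 4, adjusted p = 0.000654). Both probes of chr5:105032961-105037248 (forward) rose, by 2.65 and 2.80, and that of chr15:84737071-84753414 (reverse) rose by 1.98. No genome of this build was at hand, so that the genes beside these intervals are not given.

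Some probes were well above background on all 4 arrays of 1 group and on none of the other, and have only a bound. There were 232 such probes in WT mice, 136 of them on genomic intervals, and 37 in TgproNGF#3 mice. The bound sets the mean of the bright group against, per array, the lowest signal among probes well above background or the probe's own. Sin3b, a corepressor scaffold, was at least 12.1-fold higher in WT mice and 4932412D23Rik at least 5.31-fold. Thumpd1, an adaptor of tRNA acetylation, was at least 44-fold higher in TgproNGF#3 mice, and Lgals2, a galectin gene, at least 3.13-fold and Cpa6, a carboxypeptidase gene, at least 2.70-fold.

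The genotype difference at 3 months was then set against that at the other ages, in 1 fit of all 22 arrays with an interaction contrast. Age lies on its own slide, and at 12 months goes with sex, so that these cannot be told apart. Relative to 1 month, 914 probes were lower (2.82%) and 16 higher (0.0494%) in the genotype difference at 3 months, of 32420 tested. Relative to 12 months 1176 were lower (3.63%) and 289 higher (0.891%). In the same fit no probe passed within 1 month or 12 months (1210 and 2266 at an unadjusted limma p below 0.05). Of the 695 lower genes with a value at the other ages, the contrast passed for 270 against 1 month and 331 against 12 months, and of 314 higher genes for 9 and 79. Since these genes were chosen by the difference at 3 months, which enters each contrast, these counts and those for the largest falls and rises are a description. The same mice of 3 months enter both contrasts.

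Several of the deepest falls had small differences at the other ages. Sdf2l1 had mean levels of -1.23 and -1.05 in TgproNGF#3 and WT mice at 1 month and of -1.74 and -1.53 at 12 months, against -4.44 and -0.34 at 3 months (contrasts -3.91 and -3.89, adjusted p = 1.13e-05 and 2.47e-05). For Mgst3 the Log2 FC was 0.10 at 1 month and 0.17 at 12 months, for Dedd 0.04 and 0.04, and for Brd1 the contrasts passed at an adjusted p of 1.37e-05 and 2.47e-05. Of the 12 largest falls as taken above 10 passed both contrasts, Serpina3f and H2ac4 being those that did not. Of the ribosomal RNA probes, not among the 12, Rn18s passed both (adjusted p = 0.000311 and 0.00132) and Rs5-8s1 neither (0.099 and 0.188).

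Other genes had a like difference at 1 month, or moved in WT mice. Syt10 had a Log2 FC of -2.37 at 1 month and -0.72 at 12 months, and neither contrast passed (adjusted p = 0.851 and 0.284). At 12 months Syt10 was at 2.01, -2.19 and 1.20 in TgproNGF#3 and at 0.50, 1.3 and 1.38 in WT mice, so that the lower mean rested on replicate 2. The Slc4a7 probe was near -2 in the transgenic mice at 1 and 12 months (-2.17 and -2.37), in WT mice at all ages between -2.35 and -1.30, and at 2.87 in TgproNGF#3 mice of 3 months. The Pla2g4e level was -2.18 and -2.20 at 1 month in the 2 groups and -2.40 in TgproNGF#3 mice of 3 months, while the WT mice of 3 months, at -4.75, were the lowest of all groups. Egr2 was likewise at -2.94 in TgproNGF#3 mice of 3 months, within the range of -3.0 to -2.40 at the other ages, with the WT mice of 3 months highest at -0.82. The Log2 FC of AI847159 was 2.33 at 3 months and -1.78 at 12 months, and that of Cd74 1.49 and -1.35. Of the 12 largest rises 3 passed the contrast with 1 month and 6 that with 12 months.

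**Figure D5:**
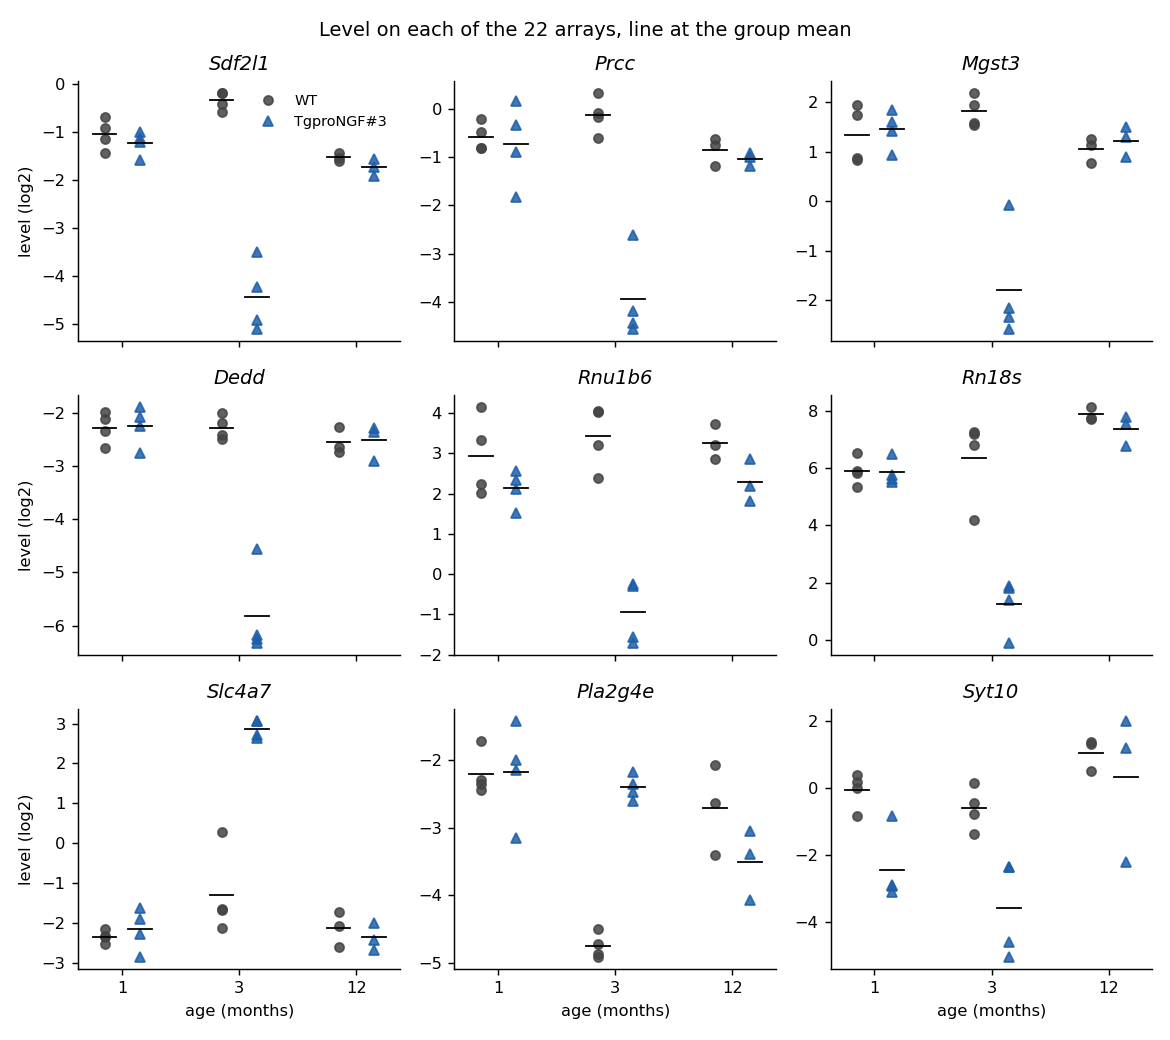
Levels (log2 relative to the array's 75th percentile) of genes with large differences at 3 months in each of the 22 mice, by age in months (1, 3 and 12) and genotype, 1 point per mouse with a line at the group mean. For Sdf2l1 and Slc4a7 the TgproNGF#3 mice of 3 months lie far from all other groups, at means of -4.44 and 2.87, whereas for Pla2g4e the WT mice of 3 months, at -4.75, are the group that stands lowest.

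Over the genes called at 3 months the medians repeat this. The 696 lower genes had a median level of -2.56 in TgproNGF#3 and -1.03 in WT mice of 3 months, and of -0.97, -0.90, -1.19 and -1.30 in the groups of 1 and 12 months. The 322 higher genes had -1.54 and -2.30 at 3 months, and -1.23, -1.51, -2.0 and -1.95 at the other ages. Since the genes were chosen by the contrast at 3 months, these medians are a description.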

How the data were processed

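The authors deposited, for every spot of an array, the background-subtracted, detrended Cy3 intensity (gProcessedSignal) of Agilent Feature Extraction 10.7.3.1, unscaled between arrays, and a table of log2 values that the authors shifted to a shared 75th percentile for probes above background on all 22 arrays. Each array has 62976 spots, 59305 not controls, for 55681 probes. The intensities were used, and the log2 table as an alternative.

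Control spots, those marked as outliers and those not well above background did not enter, log2 intensity minus the array's 75th percentile was averaged per probe, and probes with at least 2 values a side were compared with limma 3.58.1 (lmFit and eBayes, R 4.3.3, two-sided, Benjamini-Hochberg). The fit took the 8 arrays of 3 months without a replicate block. No spot was saturated, 0 columns were left without a sample, and the number of arrays limits the precision. The p-values measure the spread between these mice. Symbols came from RefSeq identifiers (28026 probes, 21154 genes). Those of Rn18s and Rs5-8s1 came from the study's probe annotation. The genes and lists were chosen with earlier results of these data known. Named were genes the study discusses, the 12 largest rises and falls with 8 values and groups apart, the 2 largest rises and falls of each list and the 3 largest each way of each contrast between ages. Some genes that this rule names are not reported here. Others are said to have been singled out, or are named within a count. On simulated data with 33593 probes, 86% of 100 probes changed by 2 on the log2 scale and 32% of 100 changed by 1 were recovered, with 0.027% of unchanged ones called. Fewer probes changed there than were called in the data, and recovery depends on that share. Dim or outlier spots, other scalings, normexp on median signals (offset 50), the authors' values, 1 value a side, 22 arrays in 1 fit, blocks and leaving out each mouse were tried as alternatives.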

Additional observations from a re-analysis of the deposited data

Results flagged for a closer look

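In 9 of 223 groups of 4 values, 4.04%, 1 mouse lay far from the other 3, where chance gives about 1 in 20. In TgproNGF#3 mice these were replicate 1 for Cpsf2 (-0.82), Glo1 (3.32) and Gpr17 (1.65), and replicate 2 for Dedd (-4.56). In WT mice they were replicate 2 for Col11a1 (-3.90), Smndc1 (-1.03) and Tti2 (-2.28), replicate 3 for Ndufa8 (2.61) and replicate 1 for Opalin (-2.52).

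The genotype difference at 3 months differed from that at 1 month, by the interaction contrast of limma, for 930 probes and from that at 12 months for 1465, and for 33 and 54 of the 94 called genes that are named. Against 1 month the named genes with the largest contrasts were Sdf2l1 (-3.91), Ttc5 (-3.76) and Mgst3 (-3.71) downwards and Prg4 (4.14), Slc4a7 (3.99) and Pla2g4e (2.33) upwards. Against 12 months they were Sdf2l1 (-3.89), Mgst3 (-3.78) and Masp2, a protease of the complement system (-3.73), downwards and Slc4a7 (4.40), Vill (4.11) and AI847159 (4.10) upwards. Age and slide cannot be told apart in these contrasts.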

How the results depend on the processing

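The 2831 probes called at 3 months became 130 with arrays aligned to the spike-in probes, 5095 with 22 arrays in 1 fit and 781 with the replicate block, and between 969 (without WT replicate 4) and 3500 (without TgproNGF#3 replicate 3) with 1 mouse left out. The replicate numbers do not pair the mice (correlations of same-numbered mice from -0.356 to -0.023). The 2272 probes of the methods' rule became 4314 with dim spots kept, 1229 with the spike-in alignment and 1234 with normexp, and 1900 to 2816 with 1 mouse left out. The contrast with 1 month (930 probes) gave 587 with only these ages fitted and 656 to 1628 with 1 mouse left out, and that with 12 months 1030 to 1986. Of the 94 called genes named, 17 were past the threshold with the spike-in alignment, 42 with the replicate block and 46 whichever mouse was left out. Called genes, 324 higher and 697 lower, became 1029 and 606 with all spots in the percentile and 906 and 688 in the authors' log2 values. Single genes' directions turned for values near 0 or on a second probe. The second probe gave 0.43 for Bcan, 0.19 for Hnrnpul1, 0.11 for Pvalb and -0.50 for Slc4a7. With all spots in the percentile Eif2s1 was at 0.041 and Pvalb at 0.10. Pvalb was at 0.0038 with median, 0.013 with spike-in alignment and 0.046 in the authors' log2 values. With 1 mouse left out Log2 FC ran from -0.19 to 0.12 for Pvalb and from -0.016 to 0.18 for Thy1, and the genotype difference in spike-in level from -0.383 to 0.383. The causes were not tested. Probes near background have wide errors, and changes of 1 on the log2 scale were mostly missed in simulated data, in which fewer probes changed than were called here.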
